A study of Mus musculus with 5 samples.

Results

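Dlx1 to Dlx6 are the 6 mouse Distal-less homeobox genes. ChIP-seq of molar mesenchyme was used to examine them for H3K27me3, the repressive histone mark placed by Ezh2. The tissue came from wildtype C57BL/6 mice on postnatal day 3, and the dental epithelium had been taken off. All libraries were wildtype, and the labels list no treatment. The labels give neither the number of animals nor whether animals were pooled. There were 5 libraries in all, namely 2 with an H3K27me3 antibody, 2 of input chromatin without immunoprecipitation, and 1 with a nonspecific IgG antibody. Expression was not measured in them, so the labelled tissue could not be checked against markers of expression. The 6 genes were chosen by name among 21938 protein-coding genes of the GENCODE M21 annotation. Peaks were taken from the body of each gene with 5 kb on each side, and from the stretch between the genes of a pair.

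Dlx proteins are homeodomain transcription factors. Their genes lie in pairs whose ends of transcription face each other, and enhancers between the genes of a pair can be shared by both. Nested Dlx expression gives the upper and lower jaw their identity. Dlx1 and Dlx2 are known in the mesenchyme of early teeth, and upper molars fail to form without them. Dlx5 and Dlx6 give the lower jaw its character, and Dlx5 also acts in bone formation. Dlx3 acts in hair, dentin and enamel, while Dlx4 is less well known. Homeobox genes are classical targets of Polycomb repressive complex 2, which places H3K27me3 over CpG-rich promoters of developmental genes that are switched off.

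The 3 deposited peak lists held few peaks at these genes. The list of replicate 1 called on its input (the replicate 1 list) had 2 of its 22757 peaks at the Dlx loci, both upstream of Dlx1. The list of the same library called on IgG (the IgG list) had 1 of 24881, and the list of replicate 2 called on its own input (the replicate 2 list) had 0 of 33379. Dlx2, Dlx3, Dlx4, Dlx5 and Dlx6 had 0 peaks in each of the 3 lists, as had 51.0% of all protein-coding genes. No peak lay inside the body of any Dlx gene or between the genes of a pair.

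The sequences of the peaks at and just outside the loci are given because they are all the peaks that any list holds within 10 kb of a Dlx pair. They are read from the plus strand of GRCm38.p6, and capitals mark CpG dinucleotides, the sites that are dense in CpG islands.
Dlx1 upstream peak, replicate 1 and IgG lists (chr2:71525695-71525762): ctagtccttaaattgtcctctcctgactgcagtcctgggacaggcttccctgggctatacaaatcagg
Dlx1 upstream peak, replicate 1 list (chr2:71526847-71527114): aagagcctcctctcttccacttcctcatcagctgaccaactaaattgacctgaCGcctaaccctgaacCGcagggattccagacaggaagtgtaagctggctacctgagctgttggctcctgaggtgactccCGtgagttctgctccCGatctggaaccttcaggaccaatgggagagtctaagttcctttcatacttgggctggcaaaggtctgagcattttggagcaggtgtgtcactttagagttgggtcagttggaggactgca
Outside the Dlx1 flank, replicate 1 list (chr2:71518411-71518498): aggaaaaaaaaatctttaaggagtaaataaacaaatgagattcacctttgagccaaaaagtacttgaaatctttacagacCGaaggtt
Outside the Dlx5 flank, replicate 2 list (chr6:6887375-6887596): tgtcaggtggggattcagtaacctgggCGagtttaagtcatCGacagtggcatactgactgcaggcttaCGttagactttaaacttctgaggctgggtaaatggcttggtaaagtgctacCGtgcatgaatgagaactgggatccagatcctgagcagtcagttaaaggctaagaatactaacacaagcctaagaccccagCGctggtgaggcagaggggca
Outside the Dlx5 flank, IgG list (chr6:6890845-6891026): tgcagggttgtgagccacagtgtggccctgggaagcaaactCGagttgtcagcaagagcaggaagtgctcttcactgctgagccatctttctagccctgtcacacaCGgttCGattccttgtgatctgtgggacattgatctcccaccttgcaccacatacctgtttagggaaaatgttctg

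The first of these held 0 CpG in 68 bp and the second held 4 in 268 bp, with 51.5% and 52.2% GC. The 3 outside the loci held 1 CpG in 88 bp, 5 in 222 bp and 3 in 182 bp. None of the 5 touched a CpG island. The closest island lay 239 bp from the 268 bp peak and 1591 bp from the 68 bp peak.

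Dlx1 (ENSMUSG00000041911.3, chromosome 2, 71528113 to 71533981, plus strand) was the single member with a called peak. Its 68 bp peak ended 2351 bp upstream of the annotated 5′ end, and its 268 bp peak ended 999 bp upstream. Both were in an intron of Dlx1as, a noncoding transcript from the opposite strand, and outside every exon of Dlx1. They covered 2.12% of the body of Dlx1 with its flanks in the replicate 1 list. The share was 0.429% in the IgG list, where only the 68 bp peak was called, and 0% in the replicate 2 list. The mean of the replicate 1 and replicate 2 lists was 1.06% ± 1.50 (SD, n = 2), so the value rested on replicate 1 alone. With n = 2 and 1 value of 0%, the SD exceeds the mean by construction.

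These Dlx1 peaks lay below the medians of their list in pileup and fold enrichment. The pileup is the mean number of overlapping tags after scaling of the larger library. Its list median was 3.19, and it was 3.14 at the 68 bp peak and 3.12 at the 268 bp peak. Both correspond, rounded, to a mean of 4 overlapping tags per base before scaling, the lowest level at which replicate 1 gave a peak, and 44.5% of the list had the lowest pileup of 3.12. The fold enrichment, the deposited ratio of pileup to the local background of the control, was 2.59 and 2.60, against a list median of 2.63. The −log10 p was 2.48 and 2.52, higher than in 15.6% and 27.1% of the peaks of the list. The list median was also 2.52, a value tied among peaks, so the 268 bp peak stood at the median by this measure. In the IgG list the 68 bp peak had a pileup of 3.24, a fold enrichment of 2.62 and a −log10 p of 2.45, higher than in 9.21% of peaks there.

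Whether Dlx1 counts as marked at its promoter depended on the annotated start. Taking the promoter as 1 kb on each side of the 5′ end, the 268 bp peak lay 999 bp away and fell just inside. Of 6 annotated Dlx1 transcripts, each with a start of its own, 1 began within 1 kb of this peak. The start in RefSeq lies at 71529445, which is 1332 bp further into the gene and 2331 bp from the peak. By this count 1 of 6 Dlx promoters had a peak in the replicate 1 list, 0 of 6 in the IgG list, and 0 of 6 in the replicate 2 list. Among all protein-coding promoters the percentages were 3.87%, 4.52% and 4.16%. Both replicates had a promoter peak at 0 of 6 Dlx genes and at 1.04% of all genes.

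Dlx2 (ENSMUSG00000023391.8, chromosome 2, 71543408 to 71546754, minus strand) had no peak nearer to its 5′ end than 19.6 kb in the replicate 1 list, 21.0 kb in the IgG list and 35.1 kb in the replicate 2 list. The replicate 1 and IgG values are distances to the Dlx1 upstream peaks. The Dlx1 and Dlx2 locus spanned 28.6 kb with its flanks, of which 9.43 kb lay between the genes. Peaks covered 1.17% of it in the replicate 1 list, 0.237% in the IgG list and 0% in the replicate 2 list (0.587% ± 0.830 over the replicate 1 and replicate 2 lists, SD, n = 2). With no flank the covered share was 0% in each list.

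Dlx3 (ENSMUSG00000001510.8, chromosome 11, 95120119 to 95125296, plus strand) and Dlx4 (ENSMUSG00000020871.8, chromosome 11, 95140447 to 95146263, minus strand) had no peak within 50 kb of the middle of their pair in any list. Their locus of 36.1 kb, with 15.2 kb between the genes, had 0 peaks in each list. In the replicate 1 list the nearest peak was 153 kb from the 5′ end of Dlx3 and 127 kb from that of Dlx4. In the replicate 2 list the distances were 135 kb and 109 kb. Across protein-coding genes the median distance to a peak was 55.4 kb in the replicate 1 list and 31.4 kb in the replicate 2 list. The Dlx3 distance exceeded that of 77.9% and 91.4% of protein-coding genes in these lists. In the IgG list a single peak stood 65.0 kb from Dlx3, in an intron of the integrin gene Itga3.

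Dlx5 (ENSMUSG00000029755.10, chromosome 6, 6877805 to 6882085, minus strand) and Dlx6 (ENSMUSG00000029754.13, chromosome 6, 6863334 to 6868568, plus strand) shared a locus of 28.8 kb, 9.24 kb of it between the genes, also with 0 peaks in each list. The lists differed outside it. In the replicate 1 list the nearest peak was 413 kb from the 5′ end of Dlx5 and 395 kb from that of Dlx6, further than for 93.9% and 93.5% of protein-coding genes. In the replicate 2 list a peak lay 5.29 kb upstream of Dlx5, which is 290 bp past the 5 kb limit. In the IgG list a different peak lay 8.76 kb upstream, and 3249 bp separated these peaks. The replicate 2 peak had a pileup of 6.45, a fold enrichment of 2.57 and a −log10 p of 2.75, higher than in 73.8% of its list, and it fell in no annotated gene.

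The values on each side of the 5 kb limit are given here for each peak. On the inside, the Dlx1 peaks had fold enrichments of 2.59 and 2.60, higher than in 12.0% and 14.7% of their list. On the outside, the peak 9.62 kb upstream of Dlx1, in an intron of Metap1d and an exon of Dlx1as, had 2.54, higher than in 3.87% of the replicate 1 list. Upstream of Dlx5, the peak 290 bp past the limit had 2.57, higher than in 75.2% of the replicate 2 list, and the peak 3760 bp past it had 2.63, higher than in 17.6% of the IgG list. Folds of different lists are not on one scale, since the lists differ in depth and control. Extending the flank to 10 kb, chosen after seeing these positions, left 0 of 6 Dlx genes with a peak in both replicates.

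**Figure D1:**
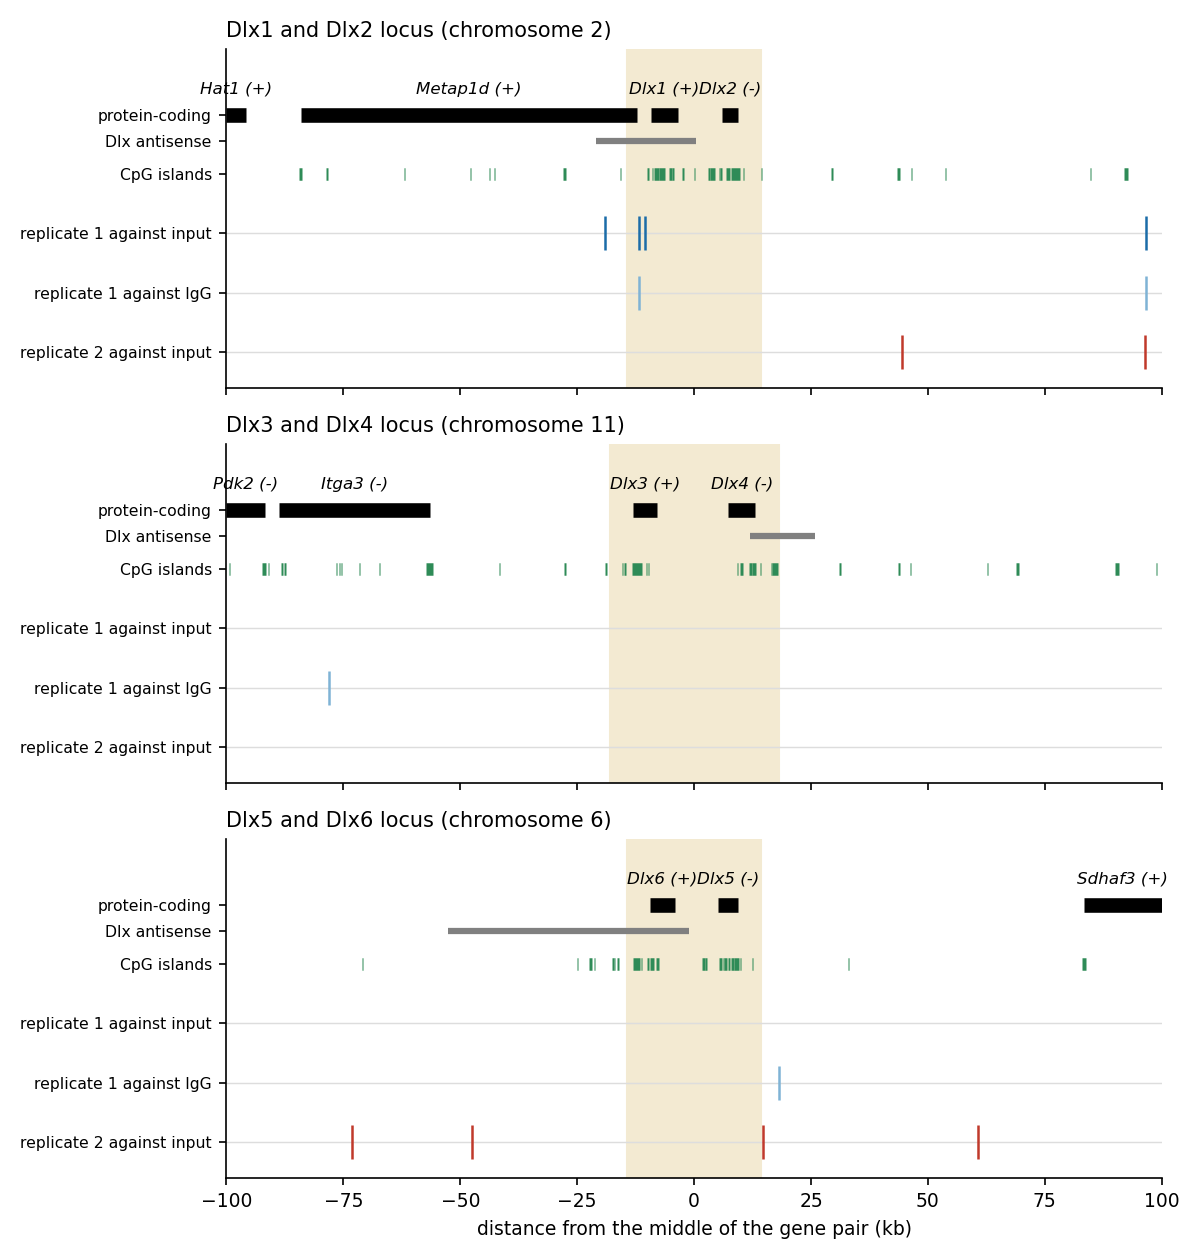
Peaks of the 3 lists (coloured ticks, widened to be visible) around each Dlx pair, with gene bodies in black, Dlx antisense transcripts in grey and CpG islands in green, by distance in kb from the middle of the pair. The shaded locus is the pair with 5 kb on each side, and the only peaks within it are upstream of Dlx1, in the replicate 1 and IgG lists, while the replicate 2 peak beside Dlx5 lies 290 bp past its edge.

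Wider surroundings were compared between replicates. Within 100 kb of the middle of the pair, Dlx1 and Dlx2 had 4 peaks in the replicate 1 list, 2 in the IgG list and 2 in the replicate 2 list. Dlx3 and Dlx4 had 0, 1 and 0, and Dlx5 and Dlx6 had 0, 1 and 4. No replicate 1 peak in these windows overlapped a replicate 2 peak, and across the genome 2.85% of replicate 1 peaks were overlapped by 1 base or more. Of the replicate 1 peaks across the genome, 51.0% were overlapped by a peak of the IgG list, as was 1 of 2 at Dlx1. Between the replicate 1 and replicate 2 lists the closest approach was 97 bp, on the far side of Dlx2 and 87.0 kb from the pair. The peak sequences at this place are given because it is the only one within 100 kb of a Dlx pair where peaks of the replicate 1 and replicate 2 lists came within 1 kb of each other.
Beyond Dlx2, replicate 2 list (chr2:71633714-71633904): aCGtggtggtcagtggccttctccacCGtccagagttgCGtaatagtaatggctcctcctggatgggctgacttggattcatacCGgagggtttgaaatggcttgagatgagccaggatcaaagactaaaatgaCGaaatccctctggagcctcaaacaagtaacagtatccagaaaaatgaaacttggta
Beyond Dlx2, replicate 1 list (chr2:71634001-71634069): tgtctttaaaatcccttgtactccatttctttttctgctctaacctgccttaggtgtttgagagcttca

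The replicate 2 sequence held 5 CpG and the replicate 1 sequence held 0. A peak of the IgG list lay 87 bp from the same replicate 2 peak. None of the 3 fell in an annotated gene or touched a CpG island. No share is given of how often peaks of the 2 replicates come within 1 kb of each other across the genome.

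**Figure D2:**
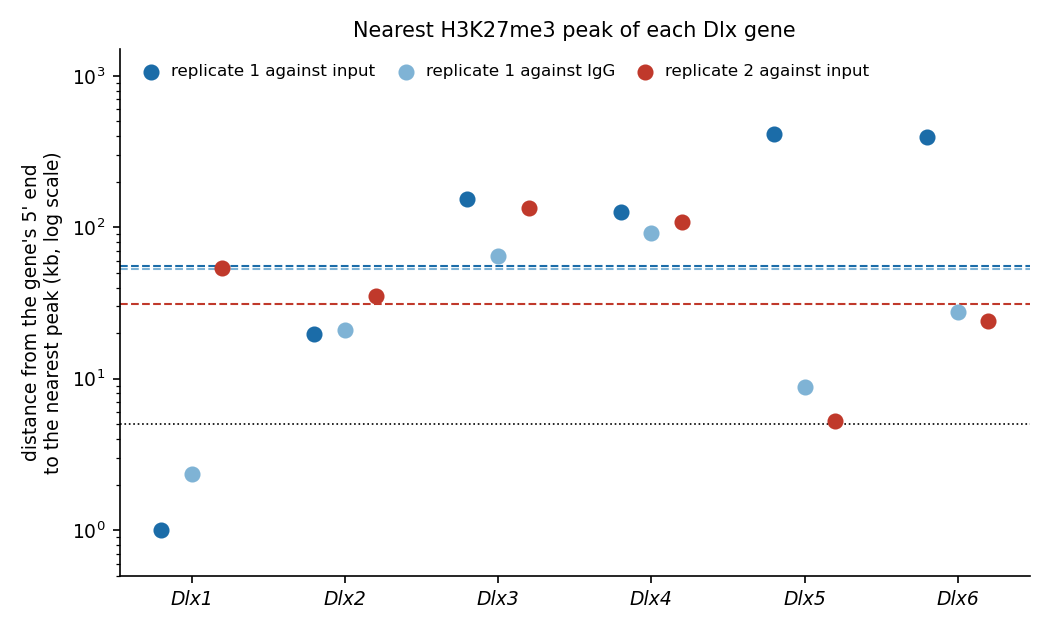
Distance in kb, on a log axis, from the 5′ end of each Dlx gene to the nearest peak in each list, with dashed lines at the median of all protein-coding genes (55.4 kb, 53.4 kb and 31.4 kb) and a dotted line at 5 kb. Only the Dlx1 points of the replicate 1 and IgG lists lie below the dotted line, and all 3 points of Dlx3 and of Dlx4 lie above the dashed lines.

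The antisense transcripts of the family were examined in the same way. Dlx1as had 3 peaks in the replicate 1 list, 1 in the IgG list and 0 in the replicate 2 list. Dlx6os1 (also known as Evf2), a noncoding RNA that starts between Dlx5 and Dlx6, runs across Dlx6 on the opposite strand and spans 51.4 kb, had 0, 0 and 1. That replicate 2 peak was in an intron, 38.1 kb from Dlx6. Dlx4os and Dlx6os2 had 0 in each list.

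The neighbouring protein-coding genes had few peaks as well. Metap1d, a mitochondrial methionine aminopeptidase gene 2.92 kb from Dlx1, had 3 peaks in the replicate 1 list, of which 2 were the Dlx1 upstream peaks, and 0 in the replicate 2 list. The integrin gene Itga6, on the other side of this pair, had 0 and 3. Tac4, a tachykinin gene 115 kb from Dlx4, had 1 peak in each replicate, covering 0.259% and 2.05% of its body with flanks (1.15% ± 1.26, SD, n = 2). On the other side, Itga3 had 0 in both replicates and 1 in the IgG list. Beside Dlx5 and Dlx6, Sem1, which encodes a proteasome subunit, had 0 and 1, and Sdhaf3, a succinate dehydrogenase assembly factor gene, had 0 and 0.

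Sequence rich in CpG, as is common at Polycomb targets, was present at all 6 genes by the island rule used here. Each Dlx 5′ end had a CpG island within 1 kb, as did 68.5% of protein-coding genes. Islands were called in windows of 200 bases with at least 50% GC and an observed to expected CpG ratio of at least 0.6. Over the full 1 kb on each side of the 5′ end, the ratio was 0.780 at Dlx2 and 0.609 at Dlx6. It was below 0.6 at Dlx1 (0.560), Dlx3 (0.584), Dlx4 (0.579) and Dlx5 (0.587). The 3 loci held 42 islands of 200 to 2124 bp, or 25.7 kb in sum. Islands made up 33.9% of the Dlx1 and Dlx2 locus, 20.8% of the Dlx3 and Dlx4 locus and 29.4% of the Dlx5 and Dlx6 locus, compared with 2.62% of the genome. Peaks touched 0 of these 42 islands in each list. Over all 180776 islands of the genome, peaks touched 1.15% in the replicate 1 list, 1.38% in the IgG list and 1.18% in the replicate 2 list. A count of 0 among 42 is near that background, which was not matched for island length or distance from a gene. The share of peaks that touched an island was 9.40%, 10.6% and 6.42% in the same order, compared with 0 of 2 and 0 of 1 Dlx locus peaks in the replicate 1 and IgG lists.

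Unique alignment needs sequence that is present and not repeated. Assembly gaps made up 0 bases of each locus. Repeats and low-complexity bases, which are soft-masked in the assembly, were 14.3%, 19.9% and 16.8% of the 3 loci in the order of the pairs, and 36.4% of the genome. Mappability itself was not measured.

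To read these counts, the same rule was applied to all protein-coding genes. A peak in the body or within 5 kb was called at 25.0% of 21938 genes in the replicate 1 list, and 1 of 6 Dlx genes had one. In the IgG list the background was 25.9%, with 1 of 6, and in the replicate 2 list it was 35.7%, with 0 of 6. Both replicates had a peak at 15.7% of genes and at 0 of 6 Dlx genes, where 3 counts would be a share of 50%, and the 95% Wilson interval reaches 39.0%. These limits cover counting error only and treat the genes as independent, although the genes of a pair are neighbours. Among the 15027 genes with a CpG island within 1 kb of the 5′ end, as all Dlx genes have, a peak was called at 28.5%, 29.4% and 40.4% in the 3 lists, and none at 45.9%. Over all genes, 51.0% had no peak in any list, and so had 5 of 6 Dlx genes (83.3%). The Dlx share lay above the background, but 6 genes in 3 pairs do not allow the difference to be tested.

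Length was taken into account with tiles of the genome. Of tiles as long as the Dlx1 and Dlx2 locus, 16.4%, 17.2% and 28.2% held a peak in the replicate 1, IgG and replicate 2 lists. For the longer Dlx3 and Dlx4 locus these were 19.7%, 20.6% and 33.8%, and for the Dlx5 and Dlx6 locus 16.5%, 17.3% and 28.3%. An empty tile was thus the more common outcome at each of these lengths in each list. Tiles were matched to the loci for length only, and not for genes or CpG islands.

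Homeobox genes of other families were counted in the same way. All 39 Hox genes, the clustered homeobox genes of the body axis, had a peak in each of the 3 lists. Genes of a cluster are neighbours, so the same peak can count for several of them, and they are not independent. The median covered share of Hox genes was 11.7% in the replicate 1 list and 9.88% in the replicate 2 list. It was 0% and 0% over Dlx genes and over all protein-coding genes. Of 146 homeobox genes outside the Hox and Dlx families, 127 (87.0%) had a peak in the replicate 1 list, 123 (84.2%) in the IgG list, 123 (84.2%) in the replicate 2 list, and 112 (76.7%) in both replicates. Their median covered share was 2.83% and 2.46% in replicates 1 and 2. These genes were listed by name after the Dlx values were known, they include some genes of the lists given further on, and the difference from Dlx genes was not tested. Loci of the Dlx, Hox and other homeobox genes were of like length, with medians of 15.2 kb, 13.5 kb and 18.4 kb. CpG islands were within 1 kb of the 5′ end in 38 of 39 Hox and 132 of 146 other homeobox genes.

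Absence of a peak in all 3 lists, as at 5 Dlx genes, was found at 7 of these 146 homeobox genes (4.79%). The share was 51.0% over all protein-coding genes and 45.9% over those with a CpG island within 1 kb of the 5′ end. The 7 homeobox genes were Meox1, Msx2, Pbx2, Pou3f4, Six5, Tgif1 and Tgif2, which are named after their values were seen. Each of the 7 had a CpG island within 1 kb of its 5′ end. Msx2 is a homeobox gene of tooth and skull mesenchyme, Pbx2 is a broadly expressed partner of other homeodomain proteins, and Meox1 acts in somites. Expression of these genes was not measured here, so the absence of a peak was not compared with it.

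Genes that act with or downstream of Dlx factors were counted list by list. Over all protein-coding genes the shares with a peak were 25.0%, 25.9% and 35.7% in the replicate 1, IgG and replicate 2 lists, and 15.7% in both replicates. Median loci were 28.2 kb for neuronal, 34.9 kb for jaw arch, 26.1 kb for tooth and 21.0 kb for mineralization genes. These are longer than the 15.2 kb of Dlx genes, and the counts were not adjusted for length. Of 6 neuronal genes downstream of Dlx1 and Dlx2, all 6 had a peak in each list, with a median covered share of 2.01% in the replicate 1 list and 2.19% in the replicate 2 list. The highest mean was at Gbx2, a midbrain and hindbrain homeobox gene, with 11.8% and 15.8% (13.8% ± 2.77, SD, n = 2). The lowest was at Gad2, which encodes an enzyme of GABA synthesis, with 0.413% and 0.316% (0.364% ± 0.0684, SD, n = 2).

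Of 8 genes of jaw arch signalling and targets of Dlx5 and Dlx6, 5 had a peak in the replicate 1 list, 5 in the IgG list, 6 in the replicate 2 list and 4 in both replicates. Hand2, a basic helix-loop-helix factor of the lower jaw, had the highest mean covered share, 5.73% ± 1.92 (SD, n = 2). Edn1, the endothelin ligand that acts upstream of Dlx5 and Dlx6, had the lowest, with 0 peaks in each list.

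Of 10 factors of tooth mesenchyme, 5 had a peak in the replicate 1 list, 5 in the IgG list, 7 in the replicate 2 list and 4 in both. The highest mean was at Barx1, a homeobox gene of molar mesenchyme, with 0.777% in the replicate 1 list and 3.75% in the replicate 2 list (2.26% ± 2.10, SD, n = 2). This rank rested on replicate 2, since in the replicate 1 list Pax9, a paired-box gene needed for tooth formation, was higher with 2.31% (1.98% ± 0.467 over both, SD, n = 2). The lowest were at Msx2 and at Bmp4, a growth factor of early tooth mesenchyme, with 0 peaks in each list. Of 8 mineralization genes, 1 had a peak in the replicate 1 list, 1 in the IgG list, 3 in the replicate 2 list and 1 in both replicates. These shares of 12.5%, 12.5%, 37.5% and 12.5% were near or below those of all genes (25.0%, 25.9%, 35.7% and 15.7%). The highest mean there was at Ibsp, a bone matrix protein gene, with 0% and 0.655% (0.327% ± 0.463, SD, n = 2), a rank that also rested on replicate 2, since in the replicate 1 list only Runx2 was above 0%, with 0.0140%. Bglap, Dmp1, Dspp, Spp1 and Sp7 had 0 peaks in each list.

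**Figure D3:**
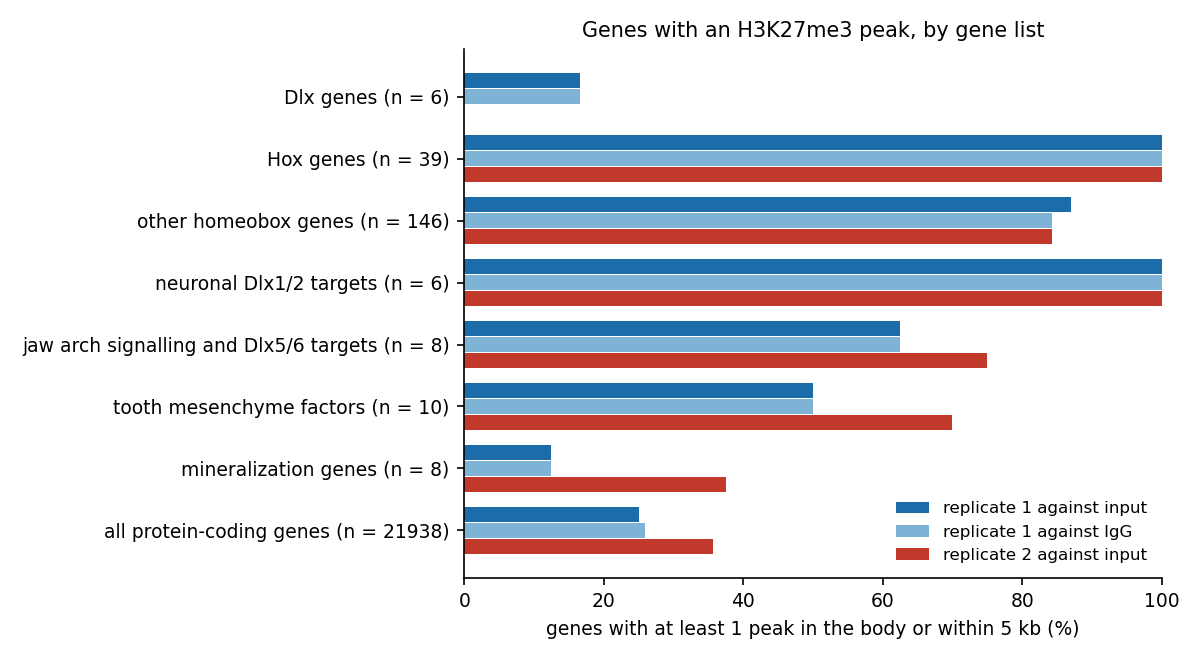
Percentage of genes with at least 1 peak in the body or within 5 kb, for the Dlx genes, the lists of other genes and all protein-coding genes, with 1 bar for each peak list. The Dlx bars stand at 16.7%, 16.7% and 0%, and those of all protein-coding genes at 25.0%, 25.9% and 35.7%. The bars of all 3 lists reach 100% for Hox genes and lie between 84.2% and 87.0% for other homeobox genes.

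A search for genes with the same pattern of covered shares over the 3 lists gave no partner for most members. For Dlx2, Dlx3, Dlx4, Dlx5 and Dlx6, 11192 other protein-coding genes had the same values of 0%. For Dlx1 the nearest by Euclidean distance were Tymp, a thymidine phosphorylase gene with 2.08%, 0.324% and 0%, and Nol3, a regulator of apoptosis with 2.03%, 0.576% and 0%, in the order of the replicate 1, IgG and replicate 2 lists.

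Depth, together with the p-value cutoff, set the lower limit of what could be called. Replicate 1 kept 30369351 H3K27me3 tags of 49 bp, and replicate 2 kept 49947919 of 74 bp. The fragment lengths used in peak calling were 46 bp and 71 bp, shorter than the tags. Peaks had a median length of 119 bp in the replicate 1 list and 181 bp in the replicate 2 list. The effect of these fragment lengths on calls at Dlx genes was not tested. The lowest mean depth of a called peak was, rounded, 4 overlapping tags per base in replicate 1 and 6 in replicate 2. These are depths per base and not the number of tags in a peak, and weaker enrichment at Dlx genes may not have been called. Tag length, depth, fragment length and input library all differ together between the replicates. Whether any of these bears on the difference at Dlx1 was not tested, and the design cannot tell them apart.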

How the data were processed

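H3K27me3 ChIP-seq libraries were made by the authors after enzymatic shearing. According to the methods of the study, BWA aligned the reads to GRCm38 and unique alignments were kept; the submitters' processing notes also name SAMtools and Partek. Broad peaks were called with MACS 2.1.1.20160309 (p-value cutoff 0.005), keeping 1 tag per position and scaling the larger library down, as the headers show. The deposited pileup is a signal, the deposited fold enrichment is a ratio, and the deposited p-values are on a −log10 scale. Replicates were not pooled. Of 3 deposited formats of each call, the full peak table was used.

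Each H3K27me3 library was assigned to its list by the library name in the header. The labels do not say whether the 2 libraries came from separate animals, so an SD is the spread between libraries. Peaks were overlapped (1 base or more) with GENCODE M21 genes using Python 3.11.15, numpy 2.4.6, pandas 2.3.3, scipy 1.17.1 and matplotlib 3.10.9. Sequences are from GRCm38.p6. Interval arithmetic was tested on simulated data. Gene starts of RefSeq were matched for 2 members. With 2 libraries, and members that are not replicates, no test between groups was made. The text names the members, their antisense transcripts and neighbours, the extremes of each list and the genes most like each member in covered share. Other homeobox genes were listed after the Dlx values were seen. Members and lists were chosen with earlier results of these data known. Alternatives were a fold enrichment of 3, a −log10 p of 3, IgG as control, equal list sizes, other flanks and promoters, and 1 replicate at a time.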

Additional observations from a re-analysis of the deposited data

How the results depend on the processing

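No paired analysis was possible because no result comes from a test. The count of Dlx genes and of Dlx promoters with a peak in both replicates was 0, and counted in 1 replicate at a time it ranged from 0 to 1. Without replicate 2 both counts were 1 (Dlx1), and without replicate 1 both were 0. Over the same settings the covered share of the Dlx1 and Dlx2 locus ranged from 0% to 1.17%. It was 0.119% with IgG as the control of replicate 1, 0.549% with a flank of 10 kb, and 0% with no flank, at a fold enrichment of 3 or higher, or at a −log10 p of 3 or higher. The Dlx5 and Dlx6 locus, at 0%, moved to 0.286% with a flank of 10 kb, chosen after seeing the data, since this takes in the replicate 2 peak upstream of Dlx5. The Dlx3 and Dlx4 locus stayed at 0% under each alternative. Of 2 replicate 1 peaks at the loci, 0 were overlapped by replicate 2, also counting peaks within 1 kb. Overlap genome-wide was 2.85%, counted at 1 base or more, and no genome-wide share within 1 kb is given. Where no peak was left at the loci, overlap and CpG island share had no value. The peaks at the loci had a mean depth close to the lowest at which their lists hold any peak.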
